A study of Homo sapiens with 6 samples.

Results

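TYMS, TYMP, UPP1, UMPS, DPYD, TK1, RRM1, RRM2 and DUT encode the target of the fluoropyrimidine drugs and enzymes that activate, break down or compete with them. They were chosen by gene symbol for these functions, and are 9 of the 63563 genes of the deposited table. Their RNA was measured in RKO, a human colorectal cancer cell line, stably transfected with the expression vector pcDNA3.1. The EV group (3 libraries) carried the empty vector, and its label gives the genotype as WT. The OVER43 group (3 libraries) carried the vector with a cDNA for Cx43, a gap junction protein whose gene is GJA1. Both groups grew in DMEM with fetal bovine serum and antibiotics, and no fluoropyrimidine or other drug treatment is named in the labels. The labels do not say whether each stable line is 1 clone or a pool, nor whether each library had its own culture. The p-values below therefore measure only the spread between these libraries.

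Fluorouracil acts after the cell has turned it into nucleotides. UMPS and the uridine and thymidine phosphorylases UPP1 and TYMP can each start this conversion, TK1 phosphorylates fluorodeoxyuridine, and ribonucleotide reductase (RRM1 with RRM2) makes the deoxy form. One product blocks TYMS, the enzyme that makes dTMP for DNA synthesis. DUT cleaves dUTP and its fluorinated form and so keeps uracil out of DNA, while DPYD breaks fluorouracil down. TYMS, TK1 and RRM2 are also known as genes whose RNA rises as cells enter S phase, when E2F transcription factors are active.

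The sequences upstream of these genes were searched for motifs linked to S phase and growth genes. They are given as a description, after it was seen that several of the genes moved together. RefSeq (GRCh38.p14) holds 18 annotated starts for the 9 genes, and the 250 bases before each start were searched on both strands. The E2F letters searched were TTTGGCGC, TTTCCCGC, TTTGCCGC and TTTCGCGC, which 2.79% of 35116 promoter windows of this length hold. CCAAT is in 32.0% of these windows, and the GC box GGGCGG in 42.6%. The TYMS window (chr18:657403-657652, plus strand) holds 1 E2F match, which begins 39 bases before the start, and no CCAAT. The single RRM1 window (chr11:4094435-4094684, plus strand) holds 1 CCAAT and 1 GC box. Of the 4 DUT windows, that before position 48332197 of chromosome 15 holds 2 E2F matches, 42 and 27 bases before the start. The RRM2 window before position 10122739 of chromosome 2 holds 3 CCAAT matches, 123, 93 and 66 bases before the start. The TK1 window before position 78187052 of chromosome 17 (minus strand) holds 2, both as the reverse complement ATTGG. Each TK1 window also holds 2 GC boxes, and the other RRM2 window holds 1 CCAAT and 1 GC box. No window of RRM2, TK1, TYMP, UMPS, UPP1 or DPYD holds an E2F match. Other letters that resemble the E2F motif were not searched. The UPP1 and DPYD windows hold only GC boxes or none of the motifs, the TYMP windows hold GC boxes and 1 CCAAT each, and the UMPS window holds none of the 3 motifs. Sequences are written 5′ to 3′ on the strand of the gene, with the matches in capitals. Where a window overlaps another transcript of the same gene, only the 30 bases around a match are shown, with that match alone in capitals. A match describes letters in the window and not a site in use.
TYMS, 250 bases before the start: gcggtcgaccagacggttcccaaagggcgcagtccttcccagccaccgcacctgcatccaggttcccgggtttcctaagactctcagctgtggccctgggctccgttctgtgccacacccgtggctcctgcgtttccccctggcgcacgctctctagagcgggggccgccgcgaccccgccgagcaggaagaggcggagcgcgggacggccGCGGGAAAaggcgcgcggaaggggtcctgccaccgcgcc
RRM1, 250 bases before the start: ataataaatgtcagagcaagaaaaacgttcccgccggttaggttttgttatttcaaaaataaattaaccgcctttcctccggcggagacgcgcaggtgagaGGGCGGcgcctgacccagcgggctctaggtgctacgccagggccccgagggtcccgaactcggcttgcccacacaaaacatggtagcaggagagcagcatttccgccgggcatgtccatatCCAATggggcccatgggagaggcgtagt
DUT, first E2F match: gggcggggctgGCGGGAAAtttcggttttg
DUT, other E2F match: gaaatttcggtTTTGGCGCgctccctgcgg
RRM2, CCAAT match farthest from the start: gggcaaggcgcagCCAATgggaagggtcgg
RRM2, middle CCAAT match: aggcatggcacagCCAATgggaagggccgg
RRM2, CCAAT match nearest to the start: cggggcaccaaagCCAATgggaagggccgg
TK1, CCAAT match farther from the start: cggccgggcgctgATTGGccccatggcggc
TK1, CCAAT match nearer to the start: gggccggctcgtgATTGGccagcacgccgt

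The labels and depth were checked first. GJA1 stood at 23.2, 26.0 and 24.9 FPKM in the OVER43 libraries, against 0.30, 0.351 and 0.394 FPKM in the EV libraries (FPKM is fragments per kilobase of transcript per M fragments, a level per length). The steps between low FPKM values placed the OVER43 libraries at 46.3 to 49.1 M fragments and the EV libraries at 42.4 to 52.0 M. FPKM summed to 554456 to 566947 in the OVER43 libraries and to 500546 to 509175 in the EV libraries, so 3 other scalings were run. EV library 2 stood apart from EV libraries 0 and 1 on the second principal component (-17.2 against 9.0 and 8.03, 11.1% of the variance). Without it the 8 tested genes gave the same count, 5 higher and 1 lower. Of the epithelial markers, KRT18 (148 against 79.4 FPKM, OVER43 first) and EPCAM (20.5 against 12.5) were higher in OVER43 and KRT8 (24.6 against 58.7) was lower. CDH1, KRT19, CDX1 and VIL1 were under 1 FPKM in every library, and the 1 other epithelial marker tested did not pass. The 9 fibroblast markers were all under 1 FPKM in every library, with COL3A1 at 0 (summed level 0.735 to 0.796 FPKM in OVER43 and 0.885 to 1.56 in EV), as were the 5 endothelial markers (0.260 to 0.437 and 0.120 to 0.186). Of 8 leukocyte markers CD68 alone passed the filter, at 376 and 413 FPKM, and PTPRC, CD3E and MS4A1 were at 0. In bulk RNA, a change in the share of cells that hold a transcript cannot be told apart from a change in its amount per cell.

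TYMS, TYMP, TK1, RRM2 and UMPS were higher in OVER43, UPP1 was lower, RRM1 and DUT did not pass the test, and DPYD was too low to test. The test was limma on log2(FPKM + 1) over the 12205 genes that reached 1 FPKM in 3 or more libraries, called at a Benjamini-Hochberg adjusted p under 0.05. Of all tested genes 45.9% were called, 28.4% higher and 17.5% lower, so a call alone sets no gene apart. The median log2 fold change of the 8 tested genes was 0.49, beside 0.05 over all tested genes. The groups did not overlap for the 6 called genes, and for 56.3% of all tested genes. An exact two-sided permutation test over the 6 libraries gave p = 0.1 for each of these 6 genes, the smallest p that 3 against 3 allows. In the authors' deposited table of Cuffdiff results, the same 6 genes had a q-value under 0.05 in the same directions. There 21.3% of 15897 tested genes had such a q-value, 11.7% higher and 9.64% lower in OVER43.

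**Figure D1:**
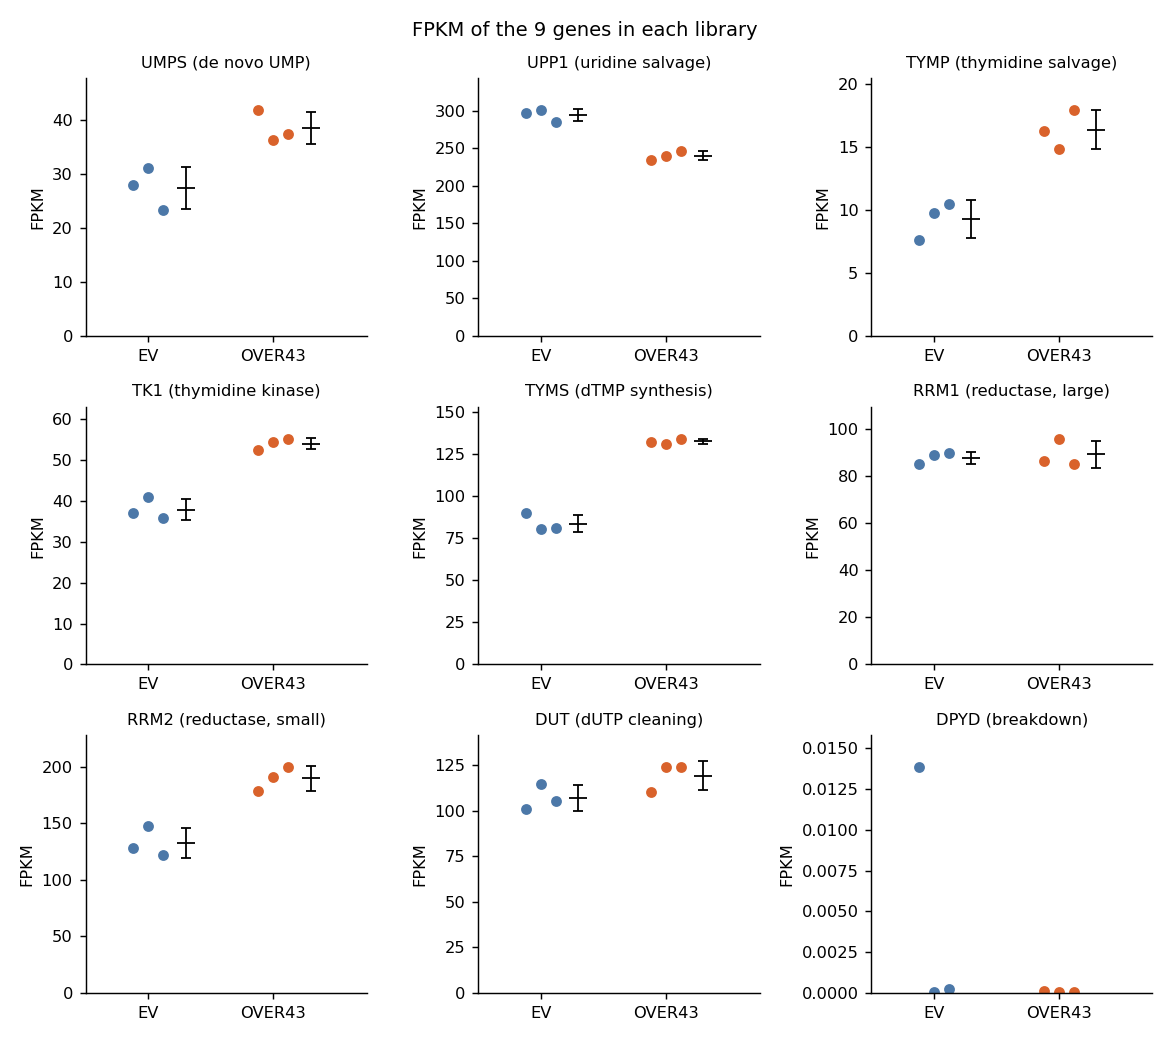
FPKM (vertical axes, from 0) of the 9 genes in the EV and OVER43 groups; points are libraries 0, 1 and 2 from left to right, and the bar beside them is the mean ± SD (n = 3), which is left out for DPYD. The OVER43 libraries lie above all EV libraries for UMPS, TYMP, TK1, TYMS and RRM2 and below them for UPP1, while RRM1 and DUT overlap and DPYD stays at or below 0.0139.

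TYMS, thymidylate synthase (ENSG00000176890; hg19 chr18:596988-712676 as deposited, a locus shared with 7 other genes), gave the smallest adjusted p of the 9. Its level was 132.0, 131.3 and 134.3 FPKM in OVER43 libraries 0, 1 and 2 and 89.8, 80.6 and 80.8 FPKM in EV libraries 0, 1 and 2. The 3 OVER43 libraries lay close together, and the lowest of them was above the highest EV library. The mean was 132.5 ± 1.54 against 83.7 ± 5.21 FPKM (SD, n = 3), 58.2% higher in OVER43. The log2 fold change was 0.66 (SE 0.046; adjusted p = 2.69e-05), and 97.1% of tested genes had a lower one. TYMS held its call under every alternative run. Among the 9 genes it moved from the fifth to the third level: in EV its libraries overlapped those of RRM1, and in OVER43 they lay above those of DUT and RRM1.

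ENOSF1, which overlaps the 3′ end of TYMS on the opposite strand, was measured beside it, because without read strand (not given in the sources used here) reads from the overlap cannot be assigned. ENOSF1 stood at 22.1 ± 1.44 and 17.4 ± 2.41 FPKM (SD, n = 3), a log2 difference of 0.33 (adjusted p = 0.0217). That call was lost under 7 alternatives, among them quantile scaling (adjusted p = 0.0578), equal FPKM sums (0.128) and without OVER43 libraries 0 (0.0721) or 1 (0.0535) or EV libraries 1 (0.058) or 2 (0.0573). TYMSOS, on the opposite strand at the 5′ end of TYMS, stood at 3.28 and 3.42 FPKM and did not pass (adjusted p = 0.745). The TYMS copies TYMSP1 and TYMSP2 were listed at 0 in every library.

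UMPS, which carries out the last steps of de novo UMP synthesis (ENSG00000114491; hg19 chr3:124449213-124464040), was 40.5% higher in OVER43. Its level was 41.8, 36.3 and 37.4 FPKM in the OVER43 libraries and 27.9, 31.1 and 23.3 FPKM in the EV libraries. The groups did not overlap, though the gap between EV library 1 and OVER43 library 1 was smaller than the spread within either group. The log2 fold change was 0.48 (SE 0.101; adjusted p = 0.00526). With no filter on low values, where 31562 genes were tested, the call was lost (adjusted p = 0.0758).

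UPP1, uridine phosphorylase, which joins uracil or fluorouracil to ribose (ENSG00000183696; hg19 chr7:48128225-48148330), had the highest level of the 9 in both groups and was the one that fell. It stood at 234.0, 240.0 and 246.2 FPKM in the OVER43 libraries, against 297.2, 300.9 and 285.3 FPKM in the EV libraries. Every OVER43 library was below every EV library. The mean fell by 18.5%, with a log2 fold change of -0.29 (SE 0.032; adjusted p = 0.000232). TYMP, thymidine phosphorylase (ENSG00000025708; hg19 chr22:50961997-50971009), acts on the deoxyribose side and moved the other way. Its level was 16.3, 14.9 and 17.9 FPKM in the OVER43 libraries and 7.62, 9.73 and 10.5 FPKM in the EV libraries. It was the lowest of the 8 tested genes and showed the largest change, with no overlap between the groups. The mean was 76.2% higher in OVER43 and the log2 fold change was 0.76 (SE 0.115; adjusted p = 0.00108), with 98.3% of tested genes lower. SCO2, a mitochondrial copper chaperone gene that overlaps TYMP, was also higher, at 35.3 ± 2.77 against 22.0 ± 1.86 FPKM (log2 fold change 0.66; adjusted p = 0.0003). Reads of the overlap may be divided between TYMP and SCO2 in a way the tables do not show. ODF3B, at the same locus, was at 2.72 and 2.18 FPKM and did not pass (adjusted p = 0.0784). Its groups did not overlap, and it was called higher with quantile scaling (adjusted p = 0.023) and by limma without its options (0.0123).

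TK1, the cytosolic thymidine kinase (ENSG00000167900; hg19 chr17:76170160-76183314), was 42.5% higher in OVER43. It stood at 52.5, 54.3 and 55.3 FPKM in the OVER43 libraries, against 37.2, 40.9 and 35.7 FPKM in the EV libraries. The groups were separated by more than the spread within either of them. The log2 fold change was 0.50 (SE 0.055; adjusted p = 0.000228).

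RRM2, the small subunit of ribonucleotide reductase, whose amount is known to follow the cell cycle (ENSG00000171848; hg19 chr2:10262455-10271545), was 43.0% higher in OVER43. Its level was 178.1, 191.1 and 199.7 FPKM in the OVER43 libraries and 127.9, 147.6 and 122.3 FPKM in the EV libraries. No library of one group reached the range of the other. The log2 fold change was 0.52 (SE 0.071; adjusted p = 0.000679). RRM1, the large subunit, which carries the catalytic site (ENSG00000167325; hg19 chr11:4115937-4160106), stood at 86.3, 95.9 and 85.2 FPKM in the OVER43 libraries, against 84.9, 88.9 and 89.6 FPKM in the EV libraries. The groups overlapped. The log2 fold change was 0.02 with a 95% interval of -0.10 to 0.14 (adjusted p = 0.772). Its sign depended on the scaling: it was -0.03 with TMM, -0.12 with equal FPKM sums and -0.17 with quantile scaling, where it passed as lower (adjusted p = 0.0366). The copy RRM2P3 was at 0.0750 and 0.0158 FPKM.

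DUT, the dUTP pyrophosphatase (ENSG00000128951; hg19 chr15:48604550-48635570), stood at 110.1, 124.1 and 123.9 FPKM in the OVER43 libraries, against 100.9, 114.8 and 105.5 FPKM in the EV libraries. OVER43 library 0 lay below EV library 1, so the groups overlapped. The log2 fold change was 0.16 with a 95% interval of 0.01 to 0.30 (adjusted p = 0.0716). Leaving out OVER43 library 0 (log2 fold change 0.21; adjusted p = 0.0236) or EV library 1 (0.21; adjusted p = 0.031) brought it past the threshold, and quantile scaling turned its sign (-0.04). DUT has pseudogene copies that could share its reads: DUTP1 stood at 0.523 and 0.530 FPKM, DUTP2 at 0.271 and 0.255, and DUTP6 at 0.212 and 0.101, while DUTP3, DUTP4, DUTP5 and DUTP7 were at 0.

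DPYD, dihydropyrimidine dehydrogenase, which begins the breakdown of uracil and fluorouracil (ENSG00000188641; hg19 chr1:97543299-98386605), was listed at or near 0 in all libraries. Its value was 9.94e-05, 7.44e-05 and 2.54e-05 FPKM in the OVER43 libraries and 0.0139, 7.63e-05 and 0.000227 FPKM in the EV libraries. On the transcript length of GENCODE 29, the highest of these is about 3.02 fragments, and 3 fragments correspond to 0.0138 to 0.0169 FPKM. DPYD was therefore not detectable at this depth beyond that amount, and no fold change is given. A value near 0 in these tables can also be a failed estimate: PGK1, a glycolysis gene that cells generally use, was listed at 0 in 5 of the 6 libraries and at 0.0183 FPKM in OVER43 library 1. DPYS, UPB1 and AGXT2, which act after DPYD or on its products, were also under 1 FPKM in every library. ABAT, the aminotransferase that takes on the product of uracil breakdown, was the breakdown gene that could be tested, and it fell from 5.47 ± 0.200 to 2.22 ± 0.157 FPKM (log2 fold change -1.01; adjusted p = 6.63e-05).

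**Figure D2:**
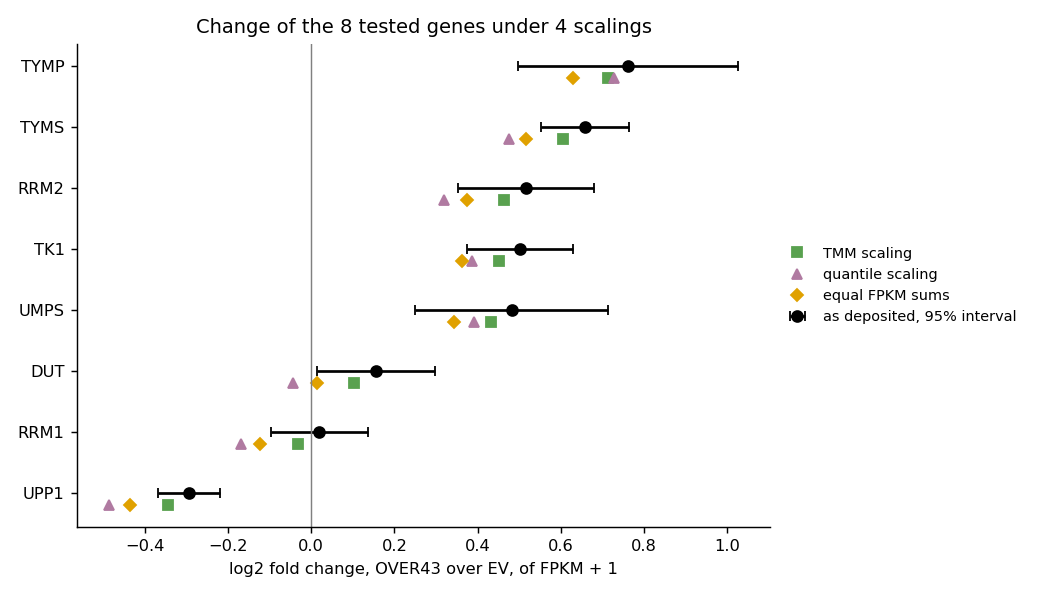
Log2 fold change of FPKM + 1, OVER43 over EV, for the 8 tested genes; black points are the values as deposited with 95% intervals from limma (n = 3 per group), and coloured symbols are 3 other scalings of the libraries. TYMP, TYMS, RRM2, TK1 and UMPS stay above 0 and UPP1 below 0 under all 4, while RRM1 and DUT change sign between them.

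The size of every change depended on how the libraries were scaled, with the direction of the 6 calls kept. The median log2 fold change over all tested genes was 0.05 as deposited, 0.007 with TMM, 0.02 with quantile scaling and -0.08 with equal FPKM sums. Among called genes 61.8% were higher as deposited, beside 52.6%, 51.2% and 34.4% with these scalings. Of all tested genes 23.3%, 21.0% and 15.3% were then called higher and 20.9%, 19.9% and 29.2% lower. The same 5 genes were higher and UPP1 was lower under each of them.

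A ratio of 2 genes within a library is not changed by any scaling that multiplies the whole library by 1 factor, such as TMM or equal FPKM sums; quantile scaling, which does not, was not run on the ratios. RRM2 per RRM1 was 2.06, 1.99 and 2.34 in the OVER43 libraries and 1.51, 1.66 and 1.37 in the EV libraries. The ratio of small to large subunit RNA was thus higher in every OVER43 library than in any EV library, with a log2 difference of 0.50 (SE 0.108). UPP1 per UMPS was 5.59, 6.61 and 6.58 in OVER43 and 10.7, 9.68 and 12.2 in EV, a log2 difference of -0.79 (SE 0.127). TYMP per UPP1 was 0.0681 ± 0.00563 in OVER43 and 0.0316 ± 0.00561 in EV (SD, n = 3), a log2 difference of 1.12 (SE 0.168). UPP1 RNA remained the more abundant of these 2 phosphorylases per length in every library. TYMS per DUT was 1.20, 1.06 and 1.08 in OVER43 and 0.890, 0.702 and 0.767 in EV, a log2 difference of 0.51 (SE 0.114). TYMS was thus below DUT in every EV library and above it in every OVER43 library. TYMS per TK1 differed least, at 2.51, 2.42 and 2.43 against 2.42, 1.97 and 2.26 (log2 difference 0.15, SE 0.088), and OVER43 library 1 and EV library 0 were almost equal. Without EV library 1 that difference was 0.07. The groups did not overlap in any of the 5 ratios, and each gave p = 0.1 by an exact two-sided permutation test (0.1 after Benjamini-Hochberg adjustment over the 5), the smallest p possible. A ratio of TYMS to DPYD was not formed, since DPYD was at or under the floor.

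**Figure D3:**
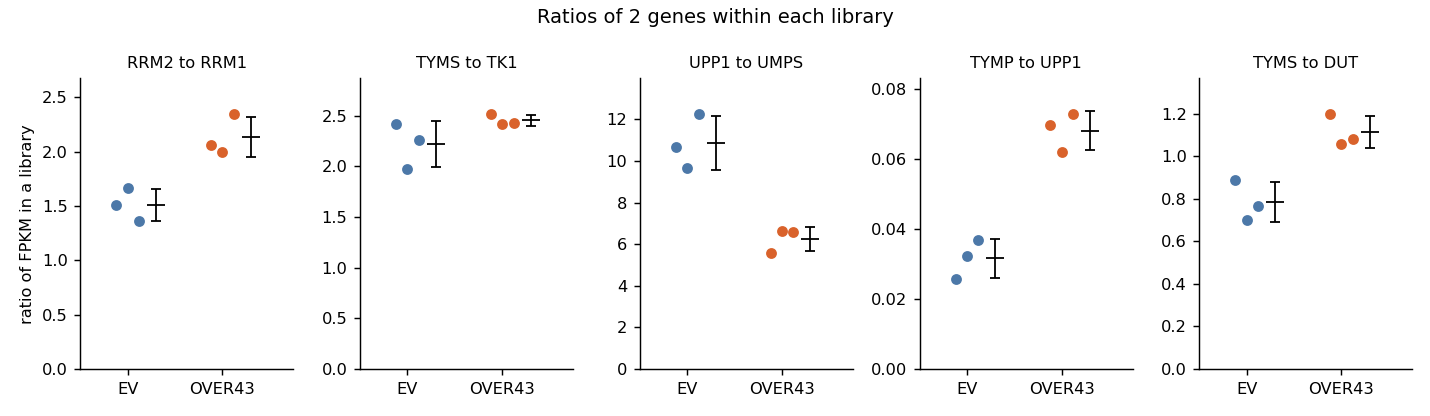
Ratio of the FPKM of 2 genes within each library (vertical axes, from 0) in the EV and OVER43 groups; points are libraries and bars are the mean ± SD (n = 3). RRM2 per RRM1, TYMP per UPP1 and TYMS per DUT are higher in all OVER43 libraries and UPP1 per UMPS is lower, while TYMS per TK1 nearly touches between the groups.

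The isoform table splits each gene among its transcripts, by an estimate that shares reads between them. It lists 87 transcripts of the 9 genes, of which 38 passed the filter, 7 were higher and 2 were lower in OVER43. Over all 31220 tested isoform entries 14.6% were called, 9.77% higher and 4.82% lower. The leading coding transcripts of TYMS, TK1 and RRM2 were among those higher. TYMS-203 stood at 108.6, 111.5 and 116.8 FPKM in OVER43 and at 62.6, 63.2 and 73.9 FPKM in EV (log2 fold change 0.75; adjusted p = 0.00274). TK1-201 stood at 49.4, 48.6 and 51.2 FPKM in OVER43 and at 32.0, 35.7 and 30.6 FPKM in EV (log2 fold change 0.59; adjusted p = 0.0037). It made up 92.1% ± 2.34 of TK1 in OVER43 and 86.4% ± 0.883 in EV (SD, n = 3). RRM2-201 stood at 140.4, 146.6 and 140.1 FPKM in OVER43 and at 102.1, 104.6 and 101.3 FPKM in EV (log2 fold change 0.47; adjusted p = 0.000788). It made up 75.2% ± 4.52 of RRM2 in OVER43 and 77.8% ± 6.21 in EV, and TYMS-203 made up 84.7% ± 2.35 and 79.9% ± 10.9 of TYMS (SD, n = 3). Of the RRM2 transcripts with a retained intron, RRM2-207 stood at 14.5 ± 6.28 against 6.16 ± 7.75 FPKM (adjusted p = 0.294) and RRM2-209 at 25.4 ± 5.97 against 18.7 ± 5.59 FPKM (adjusted p = 0.316), and neither passed. TYMS-203, TK1-201 and RRM2-201 did not overlap between groups, and each passed in all 12 settings run on the isoform table. Of the other scalings only TMM was among these 12, and quantile scaling, equal FPKM sums and limma without its options were not run there. The transcripts TYMP-201 (10.3 against 5.07 FPKM; adjusted p = 0.0174), UMPS-201 (18.8 against 13.4; 0.0237), RRM2-202 (4.08 against 1.70; 0.0294) and DUT-202 (33.0 against 28.6; 0.0403) were also called. These 4 calls were not stable: TYMP-201 passed in 7 of 12 settings, UMPS-201 in 6 of 12, RRM2-202 in 5 of 11 and DUT-202 in 3 of 12. Leaving out any 1 OVER43 library ended each of them, with adjusted p from 0.0517 to 0.114. The 4 tested RRM1 transcripts did not pass.

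For UPP1 the 2 transcripts that fell past the threshold are not annotated as coding for the full protein. UPP1-202, annotated as a target of nonsense-mediated decay, stood at 31.8, 34.6 and 34.7 FPKM in OVER43 and at 52.7, 49.1 and 49.4 FPKM in EV (log2 fold change -0.57; adjusted p = 0.00223). UPP1-212, annotated with a retained intron, stood at 19.6, 19.98 and 20.8 FPKM in OVER43 and at 35.0, 35.4 and 34.2 FPKM in EV (log2 fold change -0.76; adjusted p = 0.000498). Both lay well below the EV range in all OVER43 libraries and passed in all 12 settings. The main coding transcript UPP1-203 stood at 160.5, 160.1 and 166.9 FPKM in OVER43 and at 177.7, 185.9 and 169.0 FPKM in EV. Its groups did not overlap, but the log2 fold change of -0.13 did not pass (adjusted p = 0.104, and 0.0277 with TMM). Its share of all UPP1 was 67.7% ± 0.938 in OVER43 and 60.3% ± 1.32 in EV (SD, n = 3), while that of UPP1-212 was 8.39% ± 0.0615 and 11.8% ± 0.129. An entry that spans the whole UPP1 gene with its introns was at 4.27 against 6.46 FPKM (log2 fold change -0.50; adjusted p = 0.0195), a call that held in 6 of 12 settings. The like entries of the other 8 genes were under 1 FPKM and were not tested. That of TYMS was at 0.681 and 0.751 FPKM, that of TK1 at 0.463 and 0.438, and that of RRM2 at 0.550 and 0.444.

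**Figure D4:**
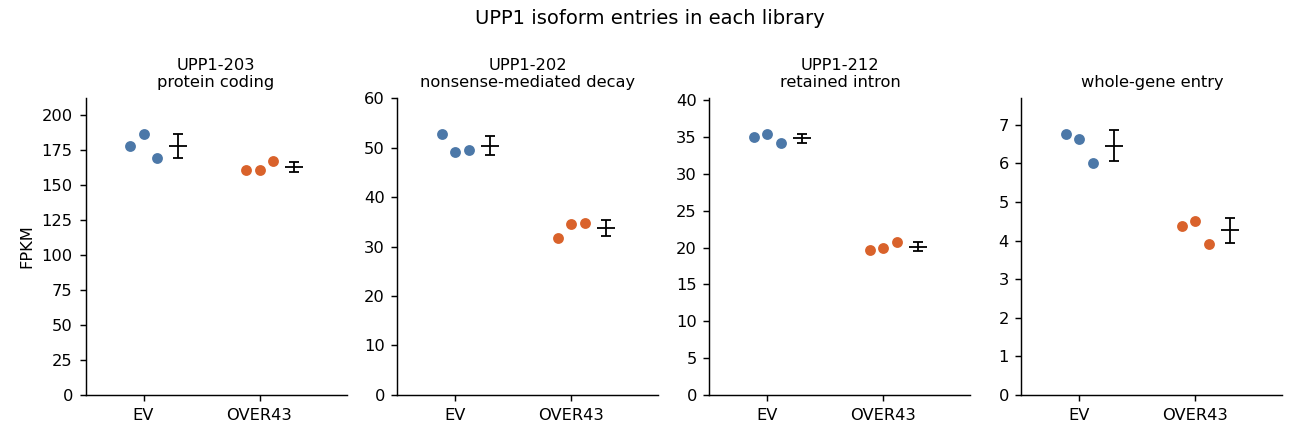
FPKM (vertical axes, from 0) of 3 UPP1 transcripts and of the entry that spans the whole UPP1 gene; points are libraries 0, 1 and 2 from left to right and bars are the mean ± SD (n = 3). UPP1-202 and UPP1-212 fell from about 50.4 and 34.9 FPKM in EV to 33.7 and 20.1 in OVER43, a larger relative difference than that of UPP1-203 (177.5 against 162.5).

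Among the other genes of pyrimidine supply, most of those that passed were higher in OVER43, as were 61.8% of all called genes. Beside the counts of each list below, 28.4% of all tested genes were called higher and 17.5% lower. Of 8 tested genes of de novo pyrimidine synthesis, UMPS included, 7 were higher by limma and 1, DHODH, did not pass, with a median log2 fold change of 0.29 beside 0.05 over all tested genes. CAD, which carries out the first steps, stood at 41.8 ± 0.534 against 30.3 ± 1.38 FPKM (log2 fold change 0.45; adjusted p = 0.000169). NME2, a nucleoside diphosphate kinase, stood at 998 ± 40.9 against 795 ± 2.20 FPKM (0.33; adjusted p = 0.00011). DHODH, the mitochondrial step between CAD and UMPS, was at 9.74 and 11.2 FPKM and did not pass (adjusted p = 0.0732). Its groups did not overlap, and it was called lower with TMM (-0.22; adjusted p = 0.0322) and equal FPKM sums (-0.31; adjusted p = 0.00879). With TMM 6 of the 8 were higher and 1 lower, with equal FPKM sums 4 and 1, and with no filter 4 were higher. Of 12 tested salvage genes, TYMP, TK1 and UPP1 included, 5 were higher and 2 lower (median 0.17), and 3 and 3 with quantile scaling or equal FPKM sums. Without these 3, 3 of 9 were higher and 1 lower (median 0.12). UCKL1, a uridine kinase-like gene, rose from 15.5 to 20.3 FPKM (0.37; adjusted p = 0.00142). TK2, the mitochondrial thymidine kinase, stood at 5.61 ± 0.664 against 7.77 ± 1.12 FPKM, opposite to TK1 (-0.41; adjusted p = 0.0201), a call lost without OVER43 library 0 (0.0664), without EV library 1 (0.0593) or with no filter (0.129).

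Of 11 tested genes of dNTP supply and pool cleaning, 6 were higher by limma and 5 did not pass (median 0.24). TYMS, RRM1, RRM2 and DUT are among these 11, and without them 4 of 7 were higher and 3 did not pass (median 0.24). With all 11, quantile scaling called 5 higher and 3 lower (median 0.04), and equal FPKM sums 6 and 2 (median 0.10). RRM2B, the other small subunit of ribonucleotide reductase, was at 42.5 and 39.5 FPKM and did not pass (adjusted p = 0.15). Of 16 tested genes of the folate cycle, TYMS itself included, 9 were higher and 3 lower (median 0.20). Of all tested genes these shares were 28.4% and 17.5%. Without TYMS, 8 of 15 were higher and 3 lower (median 0.11). MTHFS, which returns folinic acid to the cycle, stood at 36.0 ± 1.62 against 21.0 ± 0.689 FPKM (0.75; adjusted p = 2.51e-05). MTHFD1, an enzyme of the cytosolic cycle, stood at 149.8 ± 0.730 against 89.2 ± 2.39 FPKM (0.74; adjusted p = 2.72e-06). FPGS, which adds glutamates to folates, and GGH, which removes them, both fell (-0.29 and -0.23). With no filter 5 folate genes were higher. Quantile scaling called 8 higher and 5 lower (median 0.10), and equal FPKM sums 6 and 3 (median 0.06).

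Of 19 tested purine genes 9 were higher and 5 lower (median 0.11), and 6 and 6 with TMM, 5 and 6 with quantile scaling (median -0.08) and 5 and 7 with equal FPKM sums (median -0.04). ATIC (0.41), ADK (0.36) and ADSL (0.33) had the largest rises, while GMPS, which makes GMP, fell from 71.6 ± 3.46 to 44.1 ± 5.02 FPKM (-0.69; adjusted p = 0.000239). PRPS2 (-0.31) fell as well, and ADA (-0.31) passed with an adjusted p of 0.0319 that 5 alternatives brought above the threshold, among them leaving out OVER43 library 0 (0.0951), EV library 0 (0.0561) or EV library 2 (0.0977). Of 6 tested nucleoside and drug transporters 1 was higher and 1 lower (median 0.04), against 2 higher and no call lower with quantile scaling and 1 and 3 with equal FPKM sums (median -0.08). SLC29A1, an equilibrative nucleoside transporter, stood at 69.0 ± 1.54 against 57.7 ± 1.60 FPKM (0.26; adjusted p = 0.00107). ABCG2, a drug exporter, stood at 1.15 and 2.06 FPKM, and its call (adjusted p = 0.0398) was lost under 8 alternatives, including all but 1 of the 6 that leave out a library (OVER43 library 1), with adjusted p from 0.0632 to 0.119. Of 11 genes of uracil and base excision repair 6 were higher and 3 lower (median 0.15), beside 28.4% and 17.5% of all tested genes. With quantile scaling 5 were higher and 3 lower (median -0.02), and with equal FPKM sums 4 and 3 (median 0.004). The uracil glycosylase UNG stood at 53.9 ± 0.608 against 36.7 ± 1.64 FPKM (0.54; adjusted p = 5.60e-05), and FEN1 (0.55) and APEX1 (0.41), which act after it, also rose. The glycosylase MBD4 (-0.57) and the repair polymerase gene POLB (-0.43) fell. SMUG1, another uracil glycosylase, was at 27.6 and 33.0 FPKM (-0.25; adjusted p = 0.0316), a call lost under 5 alternatives, among them leaving out OVER43 library 0 (0.0739), OVER43 library 1 (0.0951) or EV library 0 (0.0801).

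Most genes of the E2F and RB list and of the S phase list were also called higher as deposited. Of all tested genes 28.4% were higher and 17.5% lower. The E2F and RB list was not split into genes that promote and genes that restrain S phase. Of 18 tested E2F and RB genes 13 were higher and 2 lower (median 0.27), and 7 and 2 with equal FPKM sums. E2F5 stood at 19.0 ± 1.03 against 8.39 ± 1.08 FPKM (1.10; adjusted p = 5.70e-05). TFDP1 (0.45), the dimer partner of the E2F factors, and E2F1 (0.42) rose, while RBL2 (-0.26) fell. TFDP2, another dimer partner, fell by 0.55 on the log2 scale, which did not pass with no filter (adjusted p = 0.0505). Of 17 S phase genes 11 were higher and 1 lower (median 0.24), with 8 to 11 higher under the other scalings. The replication clamp gene PCNA stood at 305.4 ± 7.93 against 224.6 ± 3.75 FPKM (0.44; adjusted p = 2.33e-05). The helicase genes MCM4 (0.57) and MCM3 (0.41) rose, and GINS2 (-0.28), of the same replication helicase, fell. The part of cell cycle stage in the values of TYMS, TK1 and RRM2 was not tested.

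**Figure D5:**
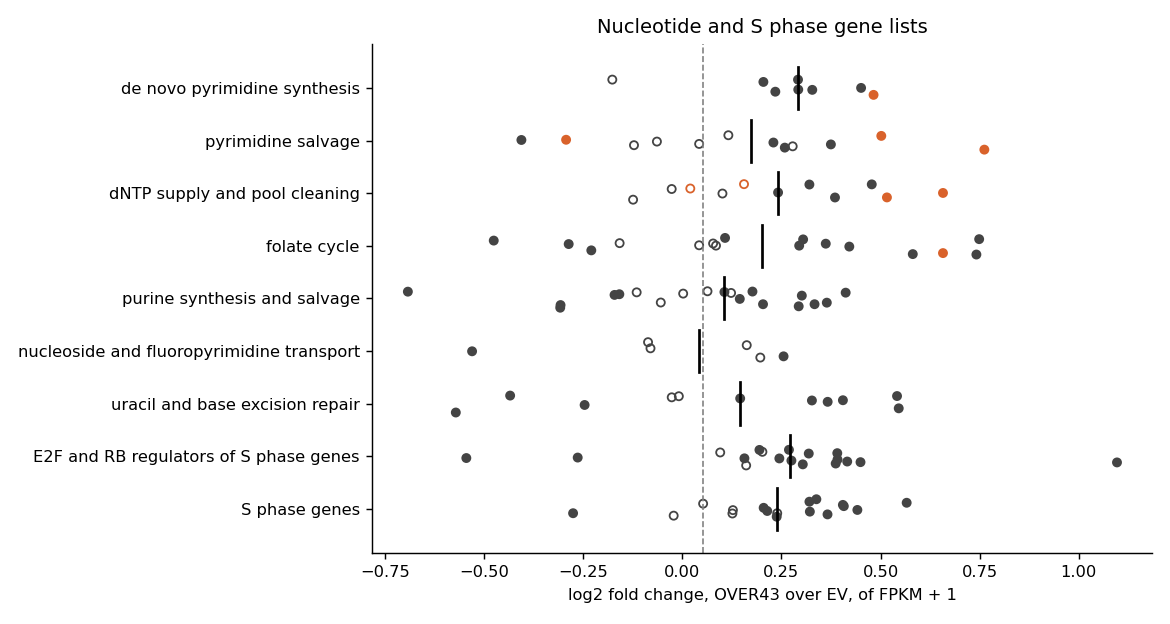
Log2 fold change of FPKM + 1, OVER43 over EV, of each tested gene (points) in 9 lists of nucleotide and S phase genes; filled points were called by limma, open points were not, and orange marks the genes of the fluoropyrimidine set. Black ticks are list medians (0.04 to 0.29) and the dashed line is the median of all tested genes (0.05); height within a row has no meaning.

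Tested genes beside each of the 9 on the chromosome are given as a description, with no test. With up to 20 tested genes on each side, the neighbours of TYMS had a median log2 fold change of 0.11 (24 genes, 9 higher and 3 lower), and those of TYMP 0.002 (28 genes, 5 higher and 8 lower). With 40 neighbours each, the medians were 0.13 for TK1 (16 higher and 3 lower), 0.09 for DPYD (12 and 8) and 0.08 for RRM2 (10 and 7). They were 0.05 for UPP1 (15 and 4), 0.04 for UMPS (11 and 5), 0.04 for RRM1 (12 and 8) and 0.02 for DUT (9 and 8). Over all tested genes 28.4% were higher and 17.5% lower.

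The genes whose log2(FPKM + 1) followed each member most closely over the 6 libraries were named from 9015 genes with a mean of at least 5 FPKM. These correlations mostly restate the 2 groups and the shared libraries, and are given without a test. TYMS was followed by ANAPC7 and ATG14 (Pearson r 0.999 each), TYMP by PRELID1 and SAFB2 (0.998 each), and UPP1 by CALM3 (0.999) and INTS13 (0.998). UMPS was followed by PSMF1 (0.997) and STAT3 (0.993), TK1 by YKT6 and AGGF1 (0.998 each), and RRM2 by SMARCB1 (0.999) and SSR2 (0.998). RRM1 and DUT, which did not separate the groups, were followed by SLC25A16 (0.981) and ADD3 (0.961) and by PRMT3 (0.996) and COG1 (0.983).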

How the data were processed

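TruSeq libraries of poly(A) RNA were sequenced, per the labels' protocols. For each library the authors deposited FPKM values made with Cuffdiff, per the submitters' processing notes, which give no version, for 63563 genes and 251748 isoform entries. The deposited log2 fold change, p-values and q-values serve only to compare calls with the authors' table. The authors' test statistic, a score, was not used. The sources used here name no aligner and no strand setting. The notes name hg38, but GENCODE 29 (GRCh38) gives only 271 of 52523 shared gene IDs an equal start or end, and the deposited loci are hg19 positions. Sequences are of GRCh38.p14 and are not set against those loci.

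Columns carry numbers 0 to 2 and the labels 1 to 3, so each column was matched to a group and not to a sample. Genes reaching 1 FPKM in 3 or more libraries were fitted in R 4.3.3 by limma 3.58.1, with its trend and robust options, on log2(FPKM + 1), group as the only term, two-sided, with Benjamini-Hochberg adjustment over all tested genes; isoform entries likewise. Fold changes are on this scale, which understates low genes. Cuffdiff left 19 genes without an estimate, and these were left out. Depth was read from 244 to 281 low values per library, all within 0.1 of a whole number of fragments; intervals and floors cover counting error or the spread of libraries only. The procedure was tested on simulated data. For the gene fit these had few changed genes and no scaling difference between libraries, unlike the real data.

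Alternatives were TMM, quantile and equal-sum scaling, a pseudocount of 0.1, no filter or at least 5 FPKM, a block by column number, limma without its options, and leaving out each library. Quantile scaling, equal-sum scaling and limma without its options were not run on isoform entries. The genes and lists were chosen with earlier results of these data known. Named genes are the 9, GJA1, overlapping and copy genes, up to 3 called genes with the largest change per list and direction, the 2 genes most like each member, and examples that did not pass. A few genes named by it are not reported here. Counts of the lists and single transcripts under the alternatives were added after the data were seen.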

Additional observations from a re-analysis of the deposited data

How the results depend on the processing

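Of 112 values of the 8 tested genes under the alternatives, 102 kept direction and side of the threshold, 1 lost its call, 3 gained one and 6 changed sign. The calls of TYMS, TYMP, TK1, RRM2 and UPP1 held in all settings run. UMPS missed the threshold with no filter (0.48; adjusted p = 0.0758). RRM1 changed sign with TMM (-0.0313), quantile scaling (-0.17, so that 2 of the genes were lower) and equal FPKM sums (-0.12), and when libraries were left out (range -0.0331 to 0.0512). DUT changed sign with quantile scaling (-0.0444), passed with the replicate block (0.16; adjusted p = 0.0249), and ranged from 0.11 to 0.21 when libraries were left out. Equal FPKM sums gave 1870 genes higher and 3567 lower in place of 3462 and 2138. Of isoform entries, 3049 were higher and 1504 lower; no filter gave 1134 and 762, the replicate block 1380 and 565, and leaving out a library 1658 to 2600 and 672 to 911. Transcripts of the 9 genes called higher were 7, and 3 with no filter, 3 with the replicate block and 3 to 6 when a library was left out. All 40 ratio values kept their direction. Leaving out a library could not have reversed it, since the groups did not overlap in any ratio. The cause of these changes was not tested. The column numbers did not pair the libraries: deviations of same-numbered libraries correlated at 0.02, -0.09 and 0.03, and the replicate block changed no other call of the 8 genes. Depth limits DPYD to a floor of 3 fragments, and 3 libraries a group cannot give an exact p under 0.1.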
